A study of Mus musculus with 40 samples.

Results

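Expression of 10 glucocorticoid-responsive genes was followed in the ventral tegmental area of adult mice, across both strains, both sexes and an early-life treatment. The genes were Fkbp5, Sgk1, Plin4, Pdk4, Errfi1, Klf9, Tsc22d3, Zbtb16, Cdkn1a and Mt2. They were taken by name as known targets of the glucocorticoid receptor, and each had 1 row in a count table of 55471 genes. The choice was made with earlier results of these data known. Counts and shares set beside all tested genes therefore describe the list and are no independent test. The treated mice had undergone repeated cross fostering (RCF), in which another adoptive mother took over the litter on each of postnatal days 1 to 4, and the control mice (CTRL) were left unhandled. RCF and CTRL mice were of the C57/Bl6 (C57) or the DBA strain, male (M) or female (F), and no genotype or later treatment besides these is given in the labels. This made 8 groups of 5 libraries: C57 M RCF and C57 M CTRL, C57 F RCF and C57 F CTRL, DBA M RCF and DBA M CTRL, DBA F RCF and DBA F CTRL. The labels name neither the animal nor the litter behind a library, and the spread between libraries that enters each p-value may be technical or shared within a litter.

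Glucocorticoids, the adrenal steroids released in stress and in a daily rhythm, bind a receptor that is held in the cytoplasm by the Hsp90 chaperone. The bound receptor enters the nucleus and acts on genes near glucocorticoid response elements, which in the full form are a pair of inverted half-sites set apart by a short spacer. In the brain its targets are induced in neurons, glia and vessel cells, and they include brakes on the receptor itself, kinases, metabolic genes and transcription factors.

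Total counts ran from 16913124 to 28179071 per library, and all 10 genes passed the filter on low counts that left 18441 genes for testing. Levels are given as CPM, counts scaled to a common library total with TMM factors. The punches differed in what they held. Summed CPM of 8 dopamine neuron markers (Th, Slc6a3, Slc18a2, Ddc, Drd2, Pitx3, En1 and Nr4a2) ran from 64.6 to 7659, so the defining markers of the labelled region were low in many libraries. In 4 libraries Slc17a7, a glutamate transporter listed here as a forebrain marker, lay between 479.6 and 1226 CPM of total counts. They were C57 M CTRL replicates 1 and 5, C57 F RCF replicate 4 and DBA F CTRL replicate 3. In the other 36 Slc17a7 lay between 2.85 and 97.3. These 4 libraries also held the highest Klf9 levels, 178 to 270 CPM, against at most 152 CPM in the other 36. Values that moved by over 1.5 times without them are given with and without them, where a fold is named. In bulk tissue, fewer cells of a type and less RNA per cell cannot be told apart.

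The promoters were searched for the receptor's response element, since it is the sequence at which the receptor binds DNA. RefSeq windows of build GRCm38.p6, from 250 bases before to 50 after a transcription start, were at hand for 9 of the 10 genes, 18 windows in all, and none was used for Zbtb16. The full element AGAACANNNTGTTCT, read on both strands, was in 0.00913% of the 32851 windows of the table. Among the 10 genes it was in 1 of 6 windows of Sgk1, at 189 bases before the start. The half-site AGAACA, also counted where it lies inside a full element, was in 19.0% of all windows and in 4 of the 18 windows here. Those were windows of 2 of the 9 genes, Sgk1 and Tsc22d3. Shown are the 250 bases before these starts, 5′ to 3′ on the gene's strand, with the full element (Sgk1, chr10:21993640-21993889, plus strand) or the half-site (Tsc22d3, chrX:140600523-140600772, minus strand) in capitals.
Sgk1: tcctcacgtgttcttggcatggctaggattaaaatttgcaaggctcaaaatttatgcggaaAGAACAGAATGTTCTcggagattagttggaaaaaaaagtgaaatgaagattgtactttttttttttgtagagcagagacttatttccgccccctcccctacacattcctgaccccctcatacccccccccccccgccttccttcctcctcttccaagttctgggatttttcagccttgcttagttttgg
Tsc22d3: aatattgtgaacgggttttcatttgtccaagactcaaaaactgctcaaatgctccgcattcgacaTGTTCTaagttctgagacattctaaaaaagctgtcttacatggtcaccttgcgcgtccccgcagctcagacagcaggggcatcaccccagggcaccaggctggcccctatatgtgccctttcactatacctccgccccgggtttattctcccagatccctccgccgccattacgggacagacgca
The Sgk1 element read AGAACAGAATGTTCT. A match is a description of letters and not a bound site, and elements that lie farther away were outside these windows.

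By the GENCODE annotation of build GRCm38, all 10 are protein-coding genes. Those the results turn on most are Plin4 (ENSMUSG00000002831.14, chr17:56100591-56109803, minus strand), Sgk1 (ENSMUSG00000019970.15, chr10:21882184-21999903, plus strand), Pdk4 (ENSMUSG00000019577.6, chr6:5483351-5496309, minus strand), Klf9 (ENSMUSG00000033863.2, chr19:23141226-23168134, plus strand) and Fkbp5 (ENSMUSG00000024222.17, chr17:28399094-28517527, minus strand). Plin4 overlaps Hdgfl2 on the opposite strand, Errfi1 the antisense gene 1700045H11Rik and Mt2 the antisense gene Gm45774, so part of their reads may belong to the neighbour. Mt2 is also related to Mt1, and reads shared between these 2 genes were not examined. Raw counts were lowest for Plin4, 42 to 674 reads per library, and reached 6077 reads for Klf9.

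Within the list, the levels differed widely. Per kilobase of exon, Mt2, a metallothionein that binds zinc and copper, had the highest median over the 40 libraries, 121 CPM per kb. Klf9, a zinc finger transcription factor, followed at 23.9 CPM per kb, Tsc22d3, the leucine zipper protein also called GILZ, at 22.0 and Sgk1, a serum- and glucocorticoid-regulated kinase, at 10.1. Plin4, a perilipin that coats lipid droplets, had the lowest, 0.679 CPM per kb. Plin4 was also the most variable, with 13.8 times as much in its highest as in its lowest library, against 2.32 times for Mt2. The rest lay at medians of 8.79 CPM per kb for Errfi1 and between 2.23 and 3.17 CPM per kb for Zbtb16, Pdk4, Fkbp5 and Cdkn1a.

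**Figure D1:**
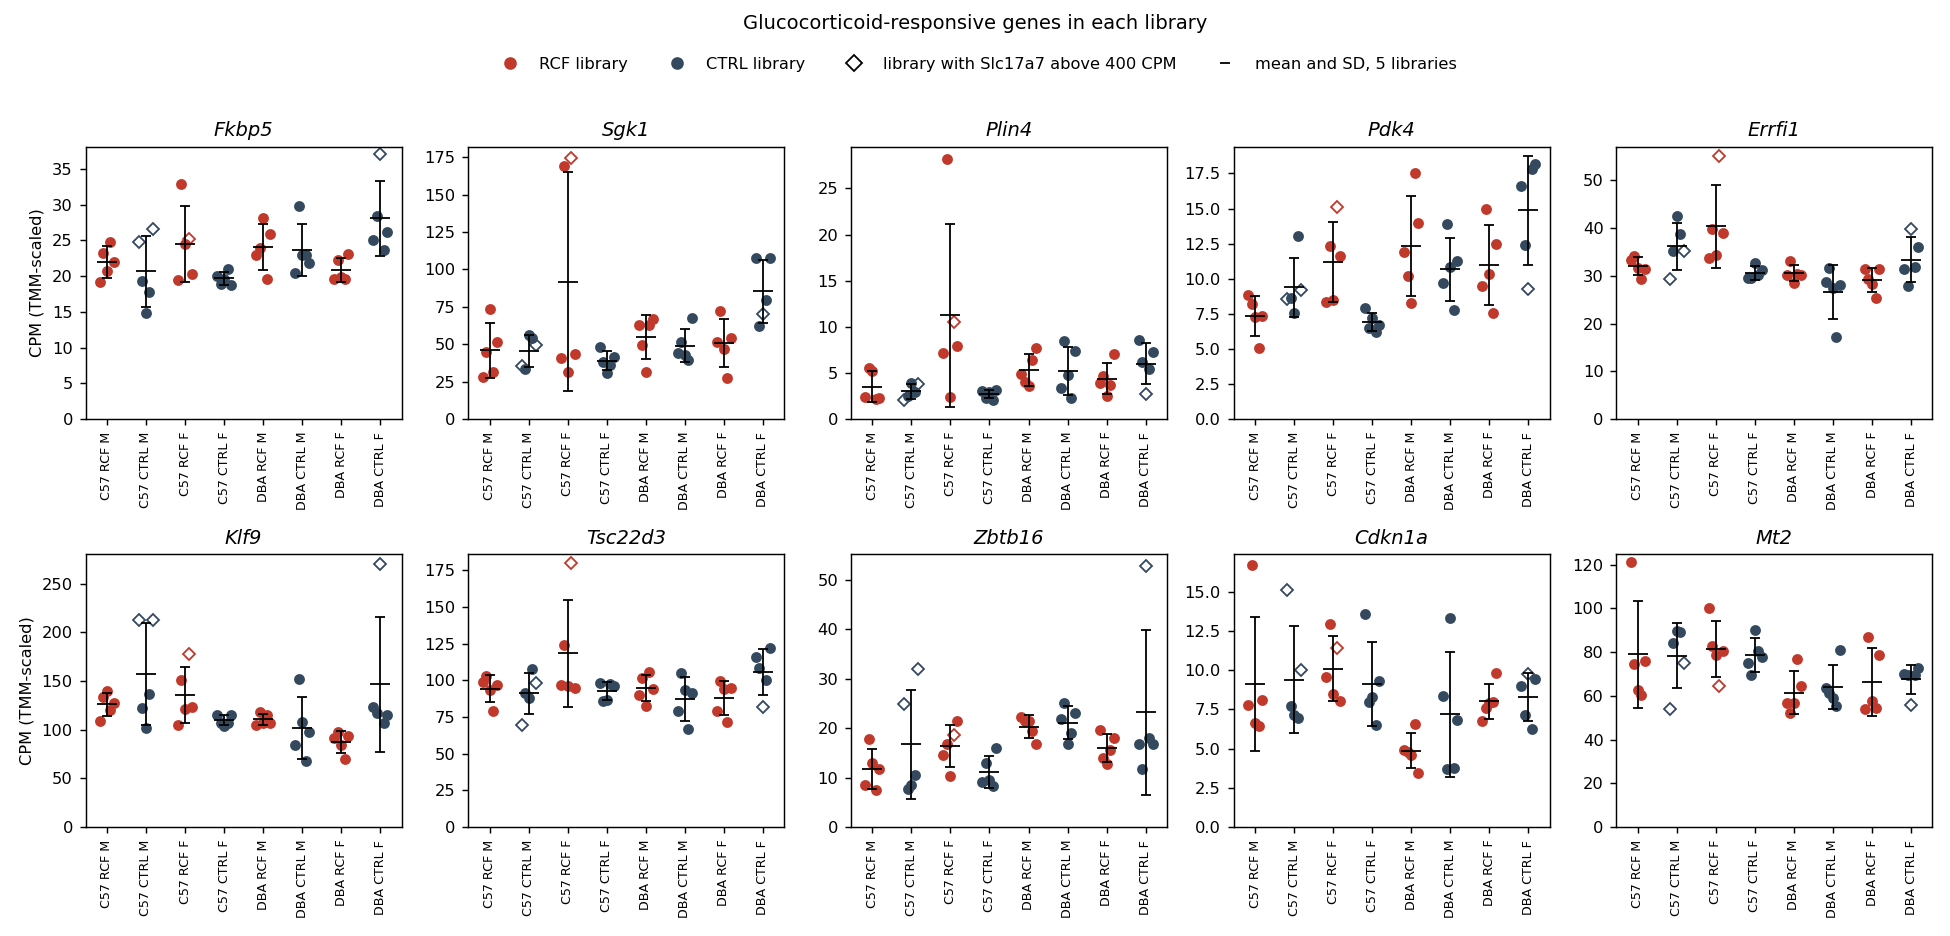
CPM (linear axis from 0) of the 10 genes in each of 40 libraries, in 8 groups with RCF left of CTRL. Bars show mean and SD over 5 libraries, and open diamonds mark the 4 libraries with Slc17a7 above 400 CPM of total counts. Plin4 reached 28.2 CPM in 1 C57 F RCF library, and Klf9 was highest in the 4 marked libraries.

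In C57 females, all 10 genes had a higher fitted mean after RCF, and none passed the adjusted threshold of 0.05. The differences were largest for Plin4 and Sgk1 and near 0 for Mt2. At an unadjusted p under 0.05 were 6 of the 10 genes, Plin4, Sgk1, Pdk4, Errfi1, Tsc22d3 and Fkbp5, where 6.78% of all tested genes were higher at that level and 0.00542% passed the adjusted threshold in either direction. The sign alone was positive for 51.5% of all tested genes, and the median log2 fold change was 0.38 over the 10 genes and 0.01 over all tested genes.

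Plin4 had 7.13, 28.2, 2.43, 10.6 and 7.93 CPM in the 5 C57 F RCF libraries, and 3.07, 2.32, 2.95, 2.10 and 3.12 CPM in the 5 C57 F CTRL libraries. RCF replicate 2 stood highest and RCF replicate 3 lay inside the control range, so the groups overlapped. The log2 fold change of Plin4 was 2.05 ± 0.43 (SE, adjusted p = 0.0689). Without RCF replicate 2 it was 1.37, and without RCF replicates 1 or 3 it passed the threshold (2.18 with adjusted p = 0.0402, and 2.30 with adjusted p = 0.0119). DESeq2 also called it (adjusted p = 0.000726).

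Sgk1 had 40.9, 169, 31.2, 174 and 43.3 CPM in C57 F RCF libraries, and 48.1, 38.1, 30.8, 36.2 and 41.6 CPM in C57 F CTRL libraries. The excess lay in RCF replicates 2 and 4, and the other RCF libraries fell in the control range. Sgk1 thus differed by 1.23 ± 0.36 on the log2 scale (SE, adjusted p = 0.211), and 0.87 without the 4 libraries of high Slc17a7, which include replicate 4. DESeq2 called Sgk1 with an adjusted p of 0.0445.

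Pdk4, a kinase that switches off pyruvate dehydrogenase and so spares glucose, had 8.35, 12.3, 8.51, 15.1 and 11.6 CPM in C57 F RCF libraries, against 7.90, 6.49, 7.22, 6.23 and 6.71 CPM in C57 F CTRL libraries. Every RCF library lay above every control. Errfi1, an inhibitor of the epidermal growth factor receptor, behaved alike, with 33.8, 39.8, 34.3, 55.2 and 39.0 CPM in RCF libraries and 29.5, 29.4, 32.7, 30.1 and 31.3 CPM in CTRL libraries. These were 2 of the 10 genes, where 1.28% of all tested genes had all RCF above all CTRL libraries. Their log2 fold changes were 0.69 ± 0.21 for Pdk4 and 0.40 ± 0.12 for Errfi1 (SE, adjusted p = 0.224 for both). Without the 4 libraries Errfi1 was at 0.26.

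Tsc22d3 had 96.6, 124, 96.4, 180 and 94.4 CPM in C57 F RCF libraries and 98.0, 85.9, 86.4, 97.6 and 96.0 CPM in C57 F CTRL libraries. RCF replicates 2 and 4 stood out, the same libraries as for Sgk1, and the other 3 lay within the control range. The log2 fold change was 0.35 ± 0.14 (SE, adjusted p = 0.304), and 0.15 without the 4 libraries. Fkbp5, an Hsp90 cochaperone that lowers the receptor's affinity for hormone, had 19.5, 32.9, 24.5, 25.2 and 20.3 CPM in RCF libraries and 19.98, 18.9, 19.7, 21.0 and 18.8 CPM in CTRL libraries (log2 fold change 0.32 ± 0.14 SE, adjusted p = 0.345). RCF replicates 2, 3 and 4 exceeded all controls, and replicates 1 and 5 did not. Without RCF replicate 2 the Fkbp5 value was 0.18.

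Klf9 averaged 136 ± 29.0 CPM in C57 F RCF and 110 ± 5.21 CPM in C57 F CTRL libraries (SD, n = 5 each). On the log2 scale the difference was 0.31 ± 0.21 (SE) with an adjusted p of 0.558, and 0.19 without the 4 libraries. Zbtb16, a zinc finger transcription factor also called PLZF, averaged 16.4 ± 4.21 CPM in RCF and 11.1 ± 3.20 CPM in CTRL libraries (log2 fold change 0.56 ± 0.34 SE, adjusted p = 0.499). Cdkn1a, the cell cycle inhibitor p21, and Mt2 had log2 fold changes of 0.14 and 0.05, each within 1 SE of 0.

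**Figure D2:**
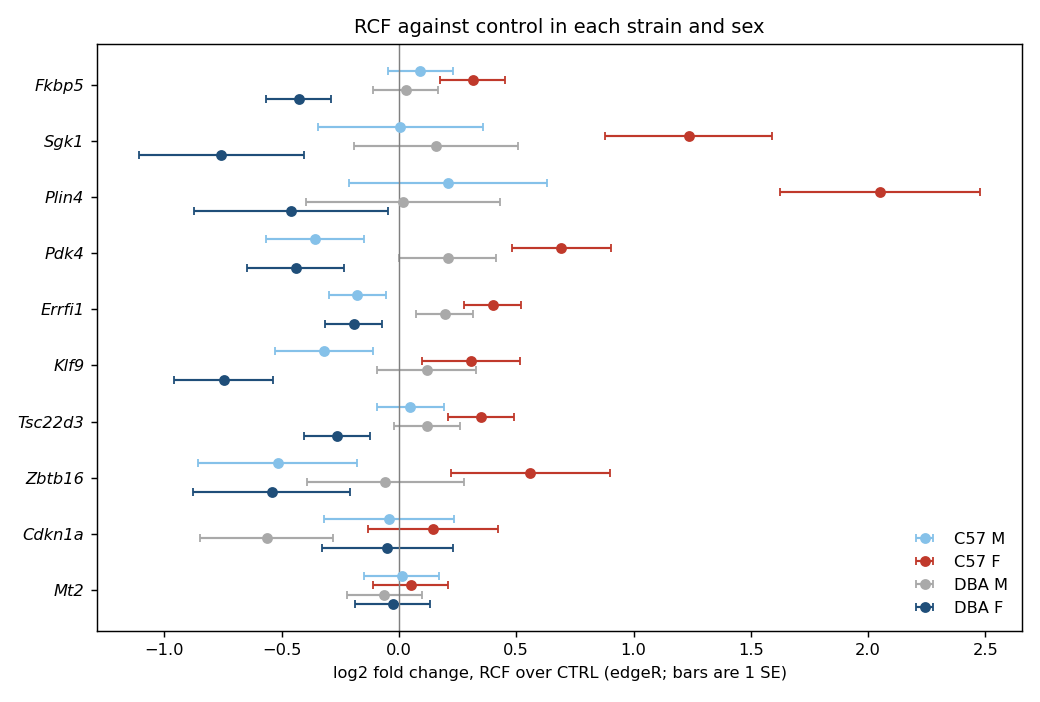
Fitted log2 fold change of RCF over CTRL for each gene in each strain and sex, with 1 SE to either side. The C57 F points lie right of 0 and the DBA F points left of 0 for all 10 genes, with Plin4 at 2.05 and Sgk1 at 1.23 in C57 F, and none has an adjusted p under 0.05.

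In DBA females, all 10 genes had a lower fitted mean after RCF, and again none passed the adjusted threshold. At an unadjusted p under 0.05 were 4 of them, Klf9, Fkbp5, Sgk1 and Pdk4, where 7.23% of all tested genes were lower at that level and 0.0163% passed the adjusted threshold in either direction. The median log2 fold change was -0.43 over the 10 genes and -0.01 over all tested genes. DESeq2 called none of the 10 genes here.

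Klf9 had 91.3, 98.0, 84.1, 69.8 and 93.1 CPM in DBA F RCF libraries, against 123, 118, 270, 107 and 115 CPM in DBA F CTRL libraries. All RCF libraries lay below all controls, and CTRL replicate 3, 1 of the 4 libraries of high Slc17a7, stood far above the other controls. The log2 fold change of Klf9 was -0.75 ± 0.21 (SE, adjusted p = 0.227) with that library and -0.40 ± 0.14 (SE, adjusted p = 0.182) without the 4 libraries. Fkbp5 had 19.6, 22.2, 19.8, 19.6 and 23.2 CPM in RCF libraries and 25.1, 28.5, 37.0, 23.7 and 26.2 CPM in CTRL libraries, again with every RCF library below every control. Klf9 and Fkbp5 were the 2 of 10 genes with this separation, where 2.55% of all tested genes had all RCF below all CTRL libraries. The log2 fold change of Fkbp5 was -0.43 ± 0.14 (SE, adjusted p = 0.243), and -0.30 without the 4 libraries.

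Sgk1 had 51.4, 72.2, 47.1, 27.8 and 54.5 CPM in DBA F RCF libraries and 107, 62.2, 70.5, 79.3 and 108 CPM in DBA F CTRL libraries. Only RCF replicate 2 reached the control range. The DBA F CTRL mean was 85.5 CPM and the C57 F RCF mean 91.7 CPM, but their medians were 79.3 and 43.3 CPM. The log2 fold change of Sgk1 was -0.76 ± 0.35 (SE, adjusted p = 0.379). Pdk4 had 9.45, 14.9, 10.3, 7.58 and 12.5 CPM in RCF libraries and 16.6, 12.4, 9.28, 17.8 and 18.2 CPM in CTRL libraries (log2 fold change -0.44 ± 0.21 SE, adjusted p = 0.383). The lowest Pdk4 control was replicate 3, the library with the highest Klf9.

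Plin4 averaged 4.38 ± 1.71 CPM in DBA F RCF and 6.02 ± 2.22 CPM in DBA F CTRL libraries (SD, n = 5 each; log2 fold change -0.46 ± 0.41 SE, adjusted p = 0.670). Tsc22d3 averaged 87.9 ± 11.8 CPM in RCF and 106 ± 15.6 CPM in CTRL libraries, and its log2 fold change stood at -0.26 ± 0.14 (SE) with an adjusted p of 0.454. Errfi1 stood at -0.19 ± 0.12 on the log2 scale (SE, adjusted p = 0.517), and at -0.11 without the 4 libraries. The Plin4 value was -0.70 without RCF replicate 5 and -0.29 without CTRL replicate 1. With the marker covariates Plin4 was at -0.27, Pdk4 at -0.20, Errfi1 at -0.10 and Tsc22d3 at -0.09. For Zbtb16 the log2 fold change was -0.54 ± 0.34 (SE, adjusted p = 0.508) and rested on 1 control, CTRL replicate 3, at 52.8 CPM against 11.8 to 18.1 CPM in the other controls; it was 0.02 without the 4 libraries. Cdkn1a and Mt2 stood at -0.05 and -0.03, within 1 SE of 0.

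The 2 female comparisons share no libraries. All 10 genes were higher in C57 F and lower in DBA F by the sign of the fitted value, where 29.6% of all tested genes had that pair of signs. Without the 4 libraries of high Slc17a7 it was 8 of 10, with Zbtb16 and Cdkn1a just above 0 in DBA F. With marker means of dopamine neurons, oligodendrocytes and endothelium as covariates it was 9 of 10, with Mt2 turning in both strains. Since the list was chosen with earlier results of these data known, these counts are a description.

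The difference itself, the RCF effect in C57 F minus that in DBA F, was tested in the same model. It was positive for all 10 genes with none past the adjusted threshold, and 8 of 10 had an unadjusted p under 0.05, where 9.34% of all tested genes were positive at that level and 0.00542% passed the adjusted threshold. On the log2 scale it was 2.51 ± 0.59 for Plin4, 1.99 ± 0.50 for Sgk1 and 1.13 ± 0.29 for Pdk4 (SE, adjusted p = 0.145 each). DESeq2 called these 3 genes, with adjusted p = 0.0129 for Plin4, 0.0152 for Sgk1 and 0.0451 for Pdk4. The next were Zbtb16 at 1.10 (adjusted p = 0.250), Klf9 at 1.05 (adjusted p = 0.158), Fkbp5 at 0.74 (adjusted p = 0.149), Tsc22d3 at 0.62 (adjusted p = 0.159) and Errfi1 at 0.59 (adjusted p = 0.158). Cdkn1a, at 0.19, and Mt2, at 0.08, were within 1 SE of 0. Without the 4 libraries Klf9 was at 0.59, Zbtb16 at 0.49 and Errfi1 at 0.38, and Plin4 was at 2.71. This pattern was not particular to the 10 genes, whose median difference was 0.90. Oligodendrocyte markers were positive in 10 of 10, 7 of them at an unadjusted p under 0.05, with a median of 0.91. Microglial markers were positive in 6 of 6, 5 of them at that level (median 0.44). Dopamine neuron markers were positive in 1 of 8, and no marker of these 3 lists was called.

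Averaged over the RCF comparisons of both strains and sexes, Plin4 stood at 0.45 ± 0.21 (SE, adjusted p = 0.692) and the others between -0.16 and 0.16 on the log2 scale. None was called, where 0.0217% of tested genes were.

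In males the genes took no common direction. After RCF 5 of 10 were higher and 5 lower in C57 M, and 7 higher and 3 lower in DBA M. None had an unadjusted p under 0.05 in either male comparison, where 2.66% of tested genes in C57 M and 2.07% in DBA M were higher at that level, and 4.41% in C57 M and 4.65% in DBA M were lower. None of the 10 was called by edgeR, which called 0.0108% of tested genes in C57 M and 0.0163% in DBA M, or by DESeq2. The lowest male p was that of Cdkn1a in DBA M, with 4.88, 4.79, 4.59, 6.57 and 3.45 CPM in RCF libraries and 8.32, 3.68, 13.3, 3.73 and 6.82 CPM in CTRL libraries. The Cdkn1a controls were spread around the RCF values, and the log2 fold change was -0.56 ± 0.28 (SE, adjusted p = 0.747), and -0.22 without CTRL replicate 3. Sgk1 in C57 M was at 0.01 ± 0.35, with 28.2 to 73.6 CPM in RCF and 33.3 to 56.3 CPM in CTRL libraries. The RCF effect in C57 M minus that in DBA M was positive for 4 genes and negative for 6, with a median of -0.11. Errfi1, at -0.37 ± 0.17 (SE, adjusted p = 0.610), alone had an unadjusted p under 0.05. At that level 703 of 18441 tested genes were negative. None of the 10, and none of all tested genes, was called for this difference.

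Several C57 M values moved with CTRL replicates 1 and 5, which hold high Slc17a7. Klf9 had 213 CPM in each of these, against 102 to 136 CPM in the other 3 controls and 109 to 140 CPM in the RCF libraries. Its log2 fold change was -0.32 with them and 0.07 without the 4 libraries. Zbtb16 stood at -0.52 with them and 0.39 without, and Fkbp5 at 0.09 with them and 0.35 without. Cdkn1a was at -0.04 with them and 0.33 without, and Mt2 at 0.01 with them and -0.14 without. None of these 5 genes was called in either fit.

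Between the sexes of C57, the RCF effect in F minus that in M was positive for all 10 genes, and 6 had an unadjusted p under 0.05, where 8.76% of tested genes were positive at that level. None passed the adjusted threshold, as 0.00542% of tested genes did. Pdk4 (1.05 ± 0.30), Errfi1 (0.58 ± 0.17) and Plin4 (1.84 ± 0.60) had the smallest adjusted p, 0.150, 0.156 and 0.172 (log2 scale, SE). Plin4 was at 1.15 without C57 F RCF replicate 2, and Pdk4 at 0.54 with the marker covariates. Over the 8 alternative fits the lowest value was -0.04 for Tsc22d3 and -0.21 for Mt2, each with 1 change of sign. Without the 4 libraries 8 of 10 were positive, with Klf9 at 0.12, Zbtb16 at 0.11, Tsc22d3 at 0.17, Fkbp5 at -0.04 and Cdkn1a at -0.23. This comparison and that of C57 F with DBA F use the same C57 F libraries. In DBA, F minus M was negative for 8 genes, 4 of them (Klf9, Fkbp5, Errfi1 and Pdk4) at an unadjusted p under 0.05 where 5.22% of tested genes were negative at that level, with Klf9 at -0.86 ± 0.30 (SE, adjusted p = 0.327), and at -0.50 without the 4 libraries.

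Strain gave the calls that RCF did not. Among unhandled controls, Fkbp5, Plin4, Pdk4 and Zbtb16 were higher in DBA than in C57 mice over both sexes, 4 of the 10 genes, where 7.88% of all tested genes were called higher in DBA and 16.0% were called in either direction. None of the 10 was called lower. The sexes together gave 10 control libraries for each strain. These include the C57 F CTRL and DBA F CTRL libraries of the female RCF comparisons, so the strain and female RCF results are not independent. Fkbp5, Plin4, Pdk4 and Zbtb16 had their lowest group mean in C57 F CTRL libraries. All of these but Plin4 had their highest group mean in DBA F CTRL libraries. Cell markers differed by strain too. Endothelial markers were lower in DBA in 9 of 9 (7 called), erythroid in 5 of 5 (all called) and meningeal in 6 of 6 (3 called). Pericyte and mural markers were lower in 6 of 6 (2 called), and oligodendrocyte markers in 10 of 10 (none called). Of the astrocyte markers 1 was called higher and 2 were called lower, and 1 hypothalamic or mammillary marker was called higher. In the microglial, oligodendrocyte precursor and choroid plexus lists, 1 marker each was called lower. The part of lists not used as covariates in the strain calls was not tested.

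Pdk4 had 9.69, 13.9, 10.9, 7.74 and 11.2 CPM in DBA M CTRL and 16.6, 12.4, 9.28, 17.8 and 18.2 CPM in DBA F CTRL libraries, against 8.54, 8.64, 7.56, 13.02 and 9.20 CPM in C57 M CTRL and 7.90, 6.49, 7.22, 6.23 and 6.71 CPM in C57 F CTRL libraries. The female groups did not overlap, and the male groups did. The log2 fold change of Pdk4, DBA over C57, was 0.65 ± 0.15 (SE, adjusted p = 0.00155). Fkbp5 averaged 23.6 ± 3.62 CPM in DBA M and 28.1 ± 5.30 CPM in DBA F controls, against 20.7 ± 4.91 CPM in C57 M and 19.7 ± 0.904 CPM in C57 F controls (SD, n = 5 each). DBA over C57 gave 0.35 ± 0.10 for Fkbp5 on the log2 scale (SE, adjusted p = 0.00992), and the adjusted p was 0.118 with the marker covariates.

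Plin4 ran from 2.33 to 8.62 CPM in DBA and from 2.04 to 3.94 CPM in C57 controls, which gave 0.97 ± 0.30 on the log2 scale (SE, adjusted p = 0.0208). The call was lost with no low-count filter (adjusted p = 0.0545) and with voom (adjusted p = 0.0956). Zbtb16, at 0.70 ± 0.24 (SE, adjusted p = 0.0399), depended on single libraries. It lost the call in 10 of the 20 fits that left out 1 control: C57 M replicate 2, 3 or 4, C57 F replicate 1, 3 or 4, DBA M replicate 1, 2 or 5, or DBA F replicate 3. Without that last library Zbtb16 stood at 0.42 (adjusted p = 0.166), and with the marker covariates at 0.36 (adjusted p = 0.483). Without the 4 libraries it was 0.88 (adjusted p = 9.51e-05). Sgk1 was at 0.62 ± 0.25 (SE, adjusted p = 0.0884) and was called by DESeq2 (adjusted p = 0.0482) and in the fit of the control libraries alone (adjusted p = 0.00327). Tsc22d3, Klf9, Errfi1, Cdkn1a and Mt2 lay between -0.26 and 0.06 and were not called, and Errfi1 was called lower in DBA without the 4 libraries (-0.25, adjusted p = 0.0213). Mt2, at -0.26, was called lower without C57 M CTRL replicate 1 (-0.31, adjusted p = 0.0411).

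**Figure D3:**
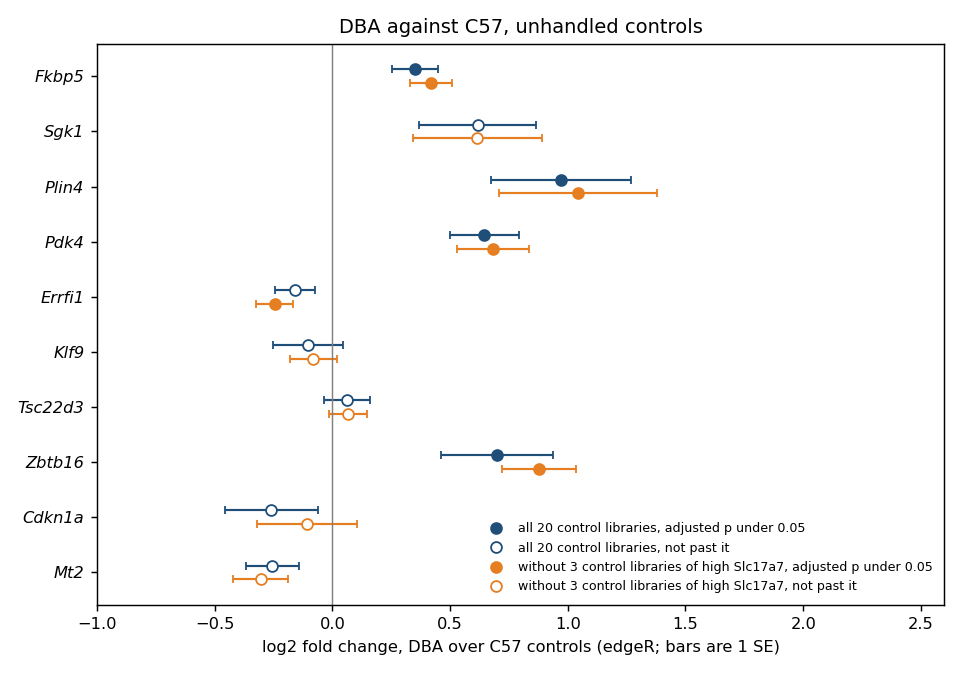
Fitted log2 fold change of DBA over C57 among unhandled controls for each gene, with 1 SE to either side, from the model of 40 libraries (blue) and that of 36 (orange, 3 of the controls left out). Filled points have an adjusted p under 0.05: Fkbp5, Plin4, Pdk4 and Zbtb16 in both fits, and Errfi1 at -0.25 in the second.

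Among the same controls none of the 10 genes differed between F and M mice by the adjusted threshold, where 0.0922% of all tested genes did. None had an unadjusted p under 0.05, where 4.88% of tested genes were higher and 5.46% lower in F at that level, and DESeq2 called none. The values lay between -0.23 for Zbtb16 and 0.28 for Sgk1 on the log2 scale.

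To ask whether the genes moved together apart from the groups, log2 CPM was taken as deviations from the group means and correlated over the 40 libraries. Of the 45 pairs, 38 had a positive Pearson r. The median was 0.20, against -0.0004 over all pairs of tested genes, and 20% of the pairs had r of at least 0.5, against 2.80% of all pairs. Within strains the median was 0.28 in C57 and 0.16 in DBA, and without the 4 libraries of high Slc17a7 it was 0.32. With CPM of total counts in place of TMM scaling it was 0.12.

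Sgk1, Plin4, Pdk4 and Tsc22d3 were mutually correlated. Pdk4 and Tsc22d3 had the highest value, r = 0.762 and Spearman's rho = 0.759 (n = 40, permutation p = 1e-05, the smallest that 100000 permutations can give; adjusted over the 45 pairs 0.00045 for r and 0.000225 for rho). It was 0.733 within C57, 0.824 within DBA, 0.776 without the 2 libraries farthest from the median of Pdk4, and 0.766 without the 4 libraries. Sgk1 and Plin4 had r = 0.702 and rho = 0.704 (permutation p = 3e-05 and 1e-05, adjusted 0.000675 and 0.000225), and r = 0.609 without the 2 farthest libraries. Sgk1 and Tsc22d3 had r = 0.687 and rho = 0.653 (permutation p = 6e-05 and 0.00011, adjusted 0.0009 and 0.00124), and r = 0.533 without the 2 farthest. Errfi1 joined with Tsc22d3 at r = 0.613 and rho = 0.480 (permutation p = 0.00322 and 0.00812, adjusted 0.0161 and 0.0332), with r = 0.315 without the 2 farthest libraries.

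Klf9 correlated with Fkbp5 and Zbtb16, and these relations leaned on the 4 libraries. Fkbp5 and Klf9 had r = 0.731 and rho = 0.639 (permutation p = 0.00019 and 0.00029, adjusted 0.00214 and 0.00186), with r = 0.614 without the 2 farthest libraries and 0.545 without the 4. Klf9 and Zbtb16 had r = 0.722 and rho = 0.616 (permutation p = 0.00053 and 0.00071, adjusted 0.00341 and 0.00399), with 0.543 without the 2 farthest and 0.285 without the 4. Klf9 and Tsc22d3 went the other way, with r = 0.202 over 40 libraries and 0.774 without the 4. In all, 11 of the 45 pairs had an adjusted p under 0.05 for r, all with positive r. Mt2 had negative r with Fkbp5, Zbtb16 and Klf9, from -0.387 to -0.350, and none of these passed.

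**Figure D4:**
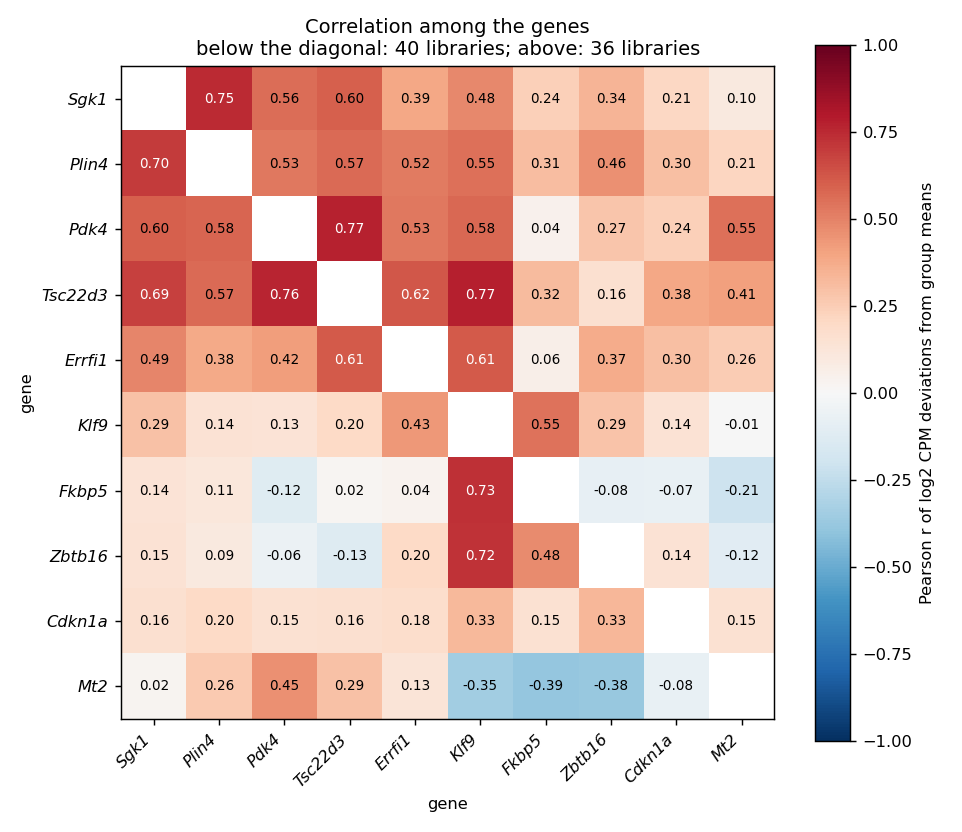
Pearson r between genes of the log2 CPM deviations from group means, over 40 libraries below the diagonal and over the 36 libraries without high Slc17a7 above it. Pdk4 with Tsc22d3 stayed at 0.76 and 0.77, whereas Klf9 with Tsc22d3 stood at 0.20 over 40 and 0.77 over 36 libraries.

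Some of the genes also moved with markers of other cells, the lists having been taken as means per library and treated in the same way. Of 30 relations computed (the 10 genes with endothelial, astrocyte and myelinating oligodendrocyte lists), the strongest were Pdk4 with oligodendrocyte markers, r = 0.714 and rho = 0.701 (n = 40, permutation p = 1e-05 each, adjusted over the 30 relations 0.00015 and 0.0003), and Tsc22d3 with the same list, r = 0.701 and rho = 0.690 (permutation p = 1e-05 and 3e-05, adjusted 0.00015 and 0.00045). Within strains Pdk4 had 0.517 in C57 and 0.855 in DBA, and Tsc22d3 had 0.529 in C57 and 0.901 in DBA. Without the 2 libraries farthest from the median they were 0.663 and 0.630. Mt2 followed astrocyte markers, r = 0.678 and rho = 0.627 (permutation p = 2e-05 and 0.00015, adjusted 0.0002 and 0.0015), with 0.765 in C57, 0.641 in DBA and 0.676 without the 2 farthest libraries. Plin4 had r = 0.439 and rho = 0.483 with the oligodendrocyte list (permutation p = 0.0081 and 0.00546, adjusted 0.0405 and 0.0273), with 0.203 in C57, 0.716 in DBA and 0.366 without the 2 farthest libraries. With endothelial markers, Mt2 had r = 0.544 and rho = 0.583 (permutation p = 0.00096 and 0.00045, adjusted 0.0072 and 0.00337), with 0.526 in C57, 0.588 in DBA and 0.502 without the 2 farthest. Pdk4 had r = 0.524 and rho = 0.525 with that list (permutation p = 0.00168 and 0.00238, adjusted 0.0101 and 0.0143), with 0.158 in C57, 0.735 in DBA and 0.477 without the 2 farthest. The other 24 relations did not pass for r, Sgk1 with the oligodendrocyte list among them (r = 0.346, adjusted p = 0.0692).

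**Figure D5:**
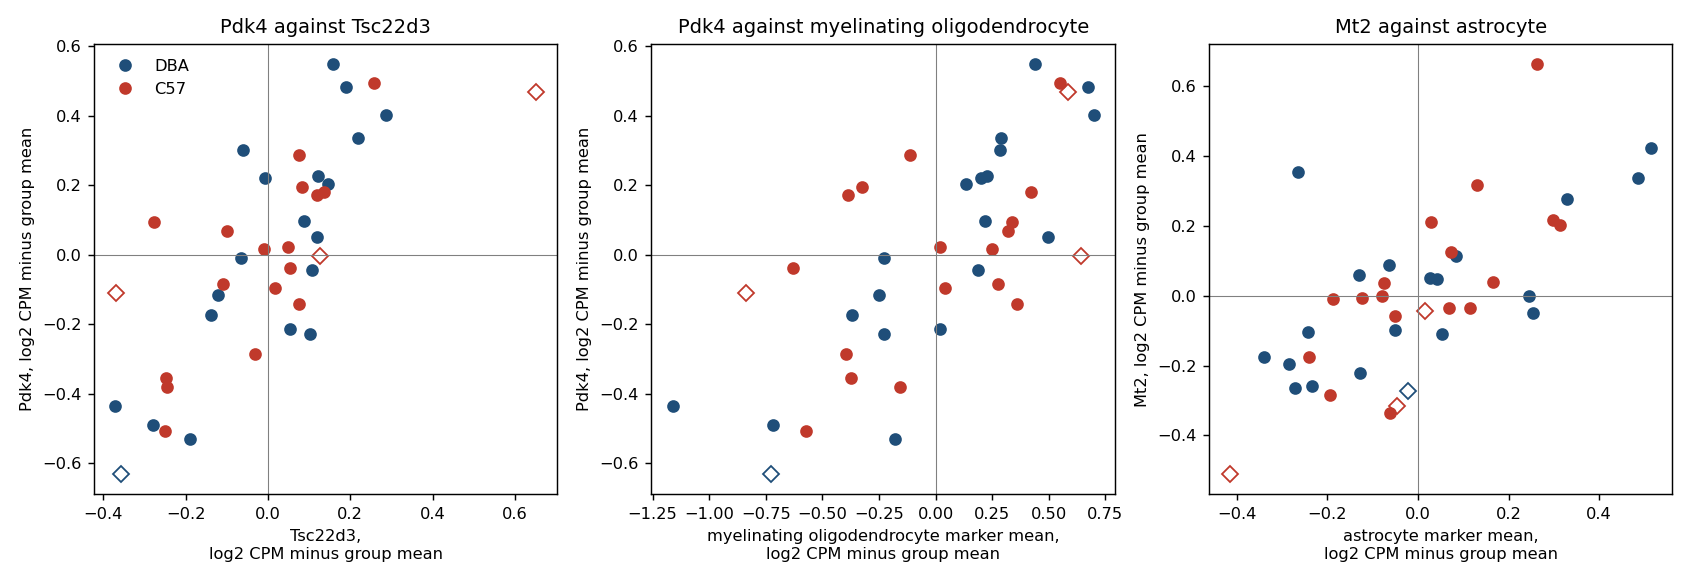
Log2 CPM deviations from group means in 40 libraries, for Pdk4 against Tsc22d3 and against the mean of 10 oligodendrocyte markers, and for Mt2 against the mean of 8 astrocyte markers. DBA is blue, C57 red, and open diamonds are the 4 libraries of high Slc17a7; the relations shown have r = 0.762, 0.714 and 0.678.

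The oligodendrocyte markers also followed the direction of the female comparisons. All 10 were higher in C57 F after RCF and all 10 lower in DBA F, none called, with median log2 fold changes of 0.56 and -0.38. Their summed level ran from 12677 to 23938 CPM in C57 F RCF and from 7351 to 15019 CPM in C57 F CTRL libraries, and from 5698 to 15034 CPM in DBA F RCF and from 7045 to 14132 CPM in DBA F CTRL libraries, and no marker was at 0 in every library of a group. With the marker covariates in the model, the C57 F minus DBA F difference of Pdk4 was 0.62 (1.13 without them) and that of Tsc22d3 0.27 (0.62 without them). Plin4 was then at 2.01 and Sgk1 at 1.63, Klf9 at 0.98 and Fkbp5 at 0.77. Endothelial markers were higher in 8 of 9 in C57 F (median 0.13) and lower in 8 of 9 in DBA F (median -0.08), and microglial markers were higher in 6 of 6 in C57 F (median 0.31) and lower in 5 of 6 in DBA F (median -0.19), none of them called. Dopamine neuron markers were higher after RCF in 8 of 8 in both, with medians of 1.22 in C57 F and 1.63 in DBA F and none called. Hypothalamic and mammillary markers were lower in 6 of 6 in C57 F (median -3.89) and higher in 6 of 6 in DBA F (median 0.84), 5 of those in C57 F at an unadjusted p under 0.05 and none called. The part in the result of the lists not used as covariates was not tested. Forebrain glutamate markers were higher in 5 of 6 in C57 F (median 0.68) and lower in 6 of 6 in DBA F (median -3.64), 5 of these at an unadjusted p under 0.05 and none called. Their summed level was 1012 to 2713 CPM in the 4 libraries and 45.9 to 359 CPM in the other 36. In C57 F RCF replicate 4, Slc17a7 alone made 973 of the 1012 CPM, so that sum was nearly all 1 gene. It made 1122 of 2713 CPM in C57 M CTRL replicate 1 and 1226 of 2595 CPM in DBA F CTRL replicate 3. Zbtb16 ran from 18.6 to 52.8 CPM in the 4 and from 7.55 to 25.1 CPM in the other 36. Of the hindbrain and serotonin markers 3 of 6 passed the filter, and all 3 were higher in C57 F (median 5.16), with Slc6a5 called (5.16, adjusted p = 0.0414), the 1 gene of the whole table called there. Their summed level was 422 CPM in C57 F RCF replicate 5 and 183 CPM in replicate 4, against at most 41.6 CPM in any other library. Without replicate 5 the C57 F log2 fold changes of Plin4, Sgk1 and Pdk4 were 2.15, 1.40 and 0.67. Without replicate 4 Sgk1 was at 0.87, Pdk4 at 0.56, Errfi1 at 0.26 and Tsc22d3 at 0.15. For these genes that was the lowest of the fits leaving out 1 library.

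Genes outside the list whose deviations were most like the mean of the 10 genes were sought over the same 40 libraries. The 8 highest were Cysltr1 (r = 0.724), Net1 (0.711), Adipor2 (0.711), Gpt2 (0.697), Csrnp1 (0.687), Slc38a2 (0.686), Tcf19 (0.684) and Slc35a5 (0.681). Without the 4 libraries these lay between 0.619 and 0.748. The values are a description, since the genes were ranked on them.

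A wider list of 24 genes induced by glucocorticoids, 22 of them tested, had mostly the same signs in the female comparisons. In C57 F 16 were higher and 6 lower after RCF, with a median log2 fold change of 0.19, and in DBA F 3 were higher and 19 lower, with a median of -0.14. By sign, 51.5% of all tested genes were higher in C57 F and 47.6% in DBA F. None of the list was called in either comparison. At an unadjusted p under 0.05 in C57 F were 4 higher and 2 lower. Of all tested genes, 6.78% were higher and 1050 of 18441 lower there at that level. In DBA F 0 were higher and 4 lower at that level, where 7.23% of all tested genes were lower. The higher share in C57 F was not particular to it. In DBA M 16 were also higher and 6 lower (median 0.06), whereas in C57 M 7 were higher and 15 lower (median -0.13). The smallest p in C57 F were those of Fam107a, an actin-binding protein gene, at -0.69 ± 0.25 (SE, adjusted p = 0.256), the transglutaminase Tgm2 at 0.58 ± 0.22 (adjusted p = 0.277) and the arrestin-like Arrdc2 at 0.55 ± 0.21 (adjusted p = 0.290). In DBA F they were those of Gpd1, a glycerol phosphate dehydrogenase, at -0.95 ± 0.33 (adjusted p = 0.267), and the transcription factor Cebpd at -0.71 ± 0.28 (adjusted p = 0.297). The C57 F minus DBA F difference was positive for 17 of 22, with Gpd1 at 1.45, Cebpd at 1.17 and the small GTPase gene Arl4d at 1.69 (adjusted p = 0.159, 0.169 and 0.169). Per1, Ddit4 and Mt1, often used as readouts of glucocorticoid action, were at 0.17, 0.13 and 0.06 in C57 F and -0.12, -0.17 and -0.03 in DBA F on the log2 scale.

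The receptors were not called after RCF in females. Nr3c1, the glucocorticoid receptor gene, averaged 78.2 ± 9.12 CPM in C57 F RCF and 75.9 ± 5.80 CPM in C57 F CTRL libraries, and 89.4 ± 9.52 CPM in DBA F RCF and 105 ± 27.7 CPM in DBA F CTRL libraries (SD, n = 5 each). Nr3c2, the mineralocorticoid receptor gene, had a log2 fold change of 0.32 ± 0.31 in C57 F (SE, adjusted p = 0.694) and -0.75 ± 0.31 in DBA F (SE, adjusted p = 0.320). Of the 11 receptor and chaperone genes, none was called in either. By strain, Hsd11b1, whose enzyme regenerates active glucocorticoid, was lower in DBA than in C57 controls, with 7.70 ± 4.16 CPM in DBA M and 12.2 ± 1.31 CPM in DBA F, against 20.6 ± 6.38 CPM in C57 M and 18.9 ± 3.75 CPM in C57 F (SD, n = 5 each; log2 fold change -1.02, adjusted p = 0.000262). Ptges3, the p23 cochaperone of the receptor complex, was also lower (-0.22, adjusted p = 0.000205). In the wider induced list Hif3a (0.74, adjusted p = 0.00174) and Cables1 (0.33, adjusted p = 0.0105) were higher in DBA controls, and Fam107a (-0.55, adjusted p = 0.0237) and Arl4d (-0.88, adjusted p = 0.0302) were lower. These calls by strain were 2 of 11 receptor and chaperone genes and 4 of 22 genes of the wider induced list, 18.2% of each, near the 16.0% of all tested genes.

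Glucocorticoids rise and fall daily, so clock output genes were counted beside the list. Of 9, 4 were higher and 5 lower in C57 F after RCF, and 1 was higher and 8 were lower in DBA F, 4 of them at an unadjusted p under 0.05, where 7.23% of all tested genes were lower at that level, and none called. In DBA against C57 controls Dbp (0.35, adjusted p = 0.00124), Per3 (0.32, adjusted p = 0.0287) and Ciart (0.43, adjusted p = 0.0103) were called higher, 3 of 9 where 7.88% of all tested genes were. Of 7 immediate early genes 2 were higher and 5 lower in each female comparison, with none called. The hour at which tissue was taken is not given in the sources used here.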

How the data were processed

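What the authors deposited was 1 table of raw counts, whole numbers of reads for each gene in 40 libraries. Per the labels' protocols, RNA from frozen punches was made into strand-specific mRNA libraries and read as single reads of 75 nt. The tools FastQC, cutadapt 1.11 and bcl2fastq 2.20 and the build GRCm38 (mm10) are named per the submitters' processing notes. Aligner, counter and strand setting were not given in the sources used here, so reads of Plin4, Errfi1, Mt2, Fkbp5 and Cdkn1a may be shared with genes on the opposite strand. The 10 genes, the other lists and the tests were chosen with earlier results of these data known.

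All libraries entered 1 model with a mean per group in edgeR 4.0.16 (R 4.3.3, robust quasi-likelihood F test, TMM, filterByExpr, 32 residual degrees of freedom), with p-values adjusted by Benjamini-Hochberg over 18441 genes. Where no tool is named, an adjusted p is edgeR's. Alternatives were DESeq2 1.42.0, voom (limma 3.58.1), RLE factors, no low-count filter, the compared libraries alone, a replicate block, marker covariates (mean log2 CPM of dopamine neuron, oligodendrocyte and endothelial lists) and leaving out each library. Leaving out the 4 libraries with Slc17a7 above 400 CPM was added after seeing the data. CPM were scaled by TMM, and their logarithms (log2) took a prior count of 2. The named genes are all 10 genes; from the wider lists, all called genes, the 3 of lowest p in each female comparison and in their difference, and Per1, Ddit4, Mt1, Nr3c1 and Nr3c2; and the 8 genes most like the mean. Total counts per library were 16913124 to 28179071, and the median SE of a log2 fold change was 0.18. The test was checked on simulated data.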

Additional observations from a re-analysis of the deposited data

Results flagged for a closer look

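In 8 of the 80 sets of 5 libraries (10 genes in 8 groups), 1 library lay far from the other 4, by a gap rule that chance meets in about 1 of 20 sets. Of these, 3 were in DBA F CTRL replicate 3, a library of high Slc17a7: Klf9 at 269.8 CPM (others 107 to 123), Zbtb16 at 52.8 CPM (others 11.8 to 18.1) and Mt2 at 55.6 CPM (others 69.5 to 72.8). Errfi1 was high, at 55.2 CPM, in C57 F RCF replicate 4, also of high Slc17a7 (others 33.8 to 39.8). In libraries without high Slc17a7, Fkbp5 stood at 29.8 CPM in DBA M CTRL replicate 2 (others 20.5 to 23.0), Errfi1 at 17.1 CPM in DBA M CTRL replicate 4 (others 27.5 to 31.7), Cdkn1a at 16.7 CPM in C57 M RCF replicate 2 (others 6.41 to 8.11) and Mt2 at 121 CPM in C57 M RCF replicate 1 (others 60.6 to 76.1).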

How the results depend on the processing

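No called value of the 10 genes reversed its direction under any alternative. Of the 10 genes, DESeq2 called 2 in C57 F, 3 in the C57 F minus DBA F difference and 5 by strain; no low-count filter and the marker covariates each left 2 called by strain. Genes called over the whole table depended on the tool. DESeq2 called 7 (C57 M), 85 (C57 F), 18 (DBA M), 43 (DBA F), 11 (mean of the 4), 80 (C57 F minus DBA F), 3 (C57 M minus DBA M), 128 (C57 F minus C57 M), 19 (DBA F minus DBA M) and 62 (F against M), where edgeR called 2, 1, 3, 3, 4, 1, 0, 1, 1 and 17. In C57 F, 0 genes were called with no filter, voom, covariates, the compared libraries alone, the replicate block or without the 4 libraries. In C57 M it was 1 with no filter, voom or the compared libraries alone and 0 without the 4 libraries. With voom, 0 were called in DBA M and 1 in C57 M minus DBA M; with covariates, 1 in C57 M minus DBA M, 34 in F against M and 1857 by strain (2953 in the main model); with the compared libraries alone, 1 in DBA F and 0 in C57 F minus C57 M. DBA F minus DBA M gave 2 with no filter or without the 4 libraries, and F against M gave 28 without them. Over fits leaving out 1 library, called genes ran from 0 to 25 in C57 F, 2 to 5 in C57 M, 1 to 4 in DBA F, 3 to 7 in DBA M, 1 to 6 in C57 F minus C57 M, 0 to 1 in C57 M minus DBA M and 13 to 31 in F against M. Of the 10 genes, 0 to 1 was called in C57 F and 3 to 5 by strain, and the median r ran from 0.14 to 0.28. Same-numbered replicates did not deviate together (mean r -0.006 to 0.020), and with the replicate block 4 of the 10 genes were called by strain and 0 in each RCF comparison. The cause of these differences was not tested. RLE factors moved the median of all genes by at most 0.02 (log2).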
